A study of Mus musculus with 2 samples.

Results

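Chromatin accessibility was examined at 33 interferon-stimulated genes in thymus. They were chosen by name, as genes known for their response to interferon, out of 21755 protein-coding genes on the autosomes and the X chromosome. All 33 names matched 1 gene in the GENCODE annotation of GRCm38 (mm10). The annotation types 32 of them as protein-coding and Mx2 as a polymorphic pseudogene. The data are DNase-seq, in which cuts made by DNase I mark DNA that is not packed away, from whole thymus of 2 female mice aged 36 days, 1 library per mouse. The labels name no treatment. The mice were of strain B6CASTF1/J, the first-generation cross of C57BL/6J with the wild-derived CAST/EiJ, so each cell carries 1 chromosome set of either strain. Mouse 1 is the biological replicate numbered 1 in the labels and mouse 2 the one numbered 2, although both libraries share 1 donor entry. There is no other group. The design therefore allows no test between conditions, and all values below are descriptions with the spread between the mice.

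Interferons are secreted proteins that warn cells of infection. Type I and type III interferons act through receptors that activate the kinases JAK1 and TYK2, which leads to the assembly of ISGF3, a complex that holds STAT2 and IRF9. ISGF3 binds the interferon-stimulated response element (ISRE), a DNA motif of GAAA repeats, and the genes it switches on encode sensors of foreign nucleic acid, antiviral enzymes and brakes on the response. In the thymus, interferon is known to be made at a low level without infection.

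The deposited peaks, cut-rate runs and footprints were read around each gene. Promoter peaks are those that touch the 1 kb before or after any start site in the annotation, and a gene with one is called open. The promoter signal of a gene is the deposited signal of its strongest promoter peak. The scale of the signal is unnamed in the sources used here. It was treated as a height scaled to the depth of its library, which the comparisons between the mice assume. All values were whole multiples of 1 step per library, 0.00638 in mouse 1 and 0.00504 in mouse 2. If the scale is RPM, reads scaled to sequencing depth, the steps correspond to depths of 157 M reads in mouse 1 and 198 M reads in mouse 2. Each library has a shorter, stricter peak list, used unless stated, and a longer, more permissive one. In bulk tissue, fewer cells with an open site and weaker opening in each cell cannot be told apart.

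Of the 9 motifs counted, the ISRE differed most in frequency between these genes and all others. It was searched as GAAA, any 2 bases, GAAA on either strand, from 250 bases before to 50 after the principal start site. It was present in 16 of 33 members (48.5%), against 3.62% of the promoters of all protein-coding genes. The sites below, a choice, are shown because they lay inside promoter peaks of one or both mice. Each is printed 5′ to 3′ on the strand that reads GAAA, from the GRCm38 reference, with the matched bases in capitals. Where matches overlap, they are shown as 1 longer run. The reference is C57BL/6J sequence, and the CAST/EiJ allele can differ from it.
Zbp1, site at chr2:173218959-173218974: tttcaaaGAAAGAGAAAATGAAActttggt
Zbp1, site at chr2:173219007-173219022: gggtgtcGAAATCGAAATTGAAAtcggggt
Rtp4, site at chr16:23609845-23609854: gtgcaccttgGAAACCGAAActtaaagaca
Rtp4, site at chr16:23609871-23609886: agaccggGAAATGGAAACTGAAAgaaccgg
Rtp4, site at chr16:23609894-23609903: aaagaaccggGAAACTGAAActgttctttg
Isg15, site at chr4:156200875-156200896: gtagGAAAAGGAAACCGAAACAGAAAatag
Rsad2, site at chr12:26456563-26456572: tctgttttctGAAAATGAAAgttggaccag
Parp9 and Dtx3l, site at chr16:35938972-35938981: ctggggaatcGAAACTGAAActttgcctct
Ifi27, site at chr12:103434133-103434142: gagagctgggGAAATAGAAAcctatcttat
Ifi27, site at chr12:103434220-103434229: gagagctgggGAAATCGAAActtatttcag
Ifi27, site at chr12:103434307-103434316: gggaggagagGAAATTGAAAcctatctcat
Usp18, site at chr6:121245823-121245832: agatccaaagGAAAGCGAAActcaggcacc
Usp18, site at chr6:121245847-121245856: ggatctagggGAAAACGAAAgcttggcggt
Ifit1, site at chr19:34640804-34640813: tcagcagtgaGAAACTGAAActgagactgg
The Isg15 site is a run of 22 bases with 4 GAAA blocks, and both Zbp1 sites and the middle Rtp4 site are runs of 16 bases with 3 blocks. The 3 Ifi27 sites are spaced by 87 bp each. The 87 bases that start at the first site share 67 bases with those that start at the second, and the second repeat shares 41 with the third.

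The same motif also stood in promoters that had no peak. The next sites are shown for contrast, from members without a promoter peak of the shorter list in either mouse.
Oas1a, site at chr5:120907530-120907545: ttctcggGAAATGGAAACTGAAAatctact
Oas2, site at chr5:120749915-120749924: aggaacctagGAAATCGAAActcaagtgtg
Oas3, site at chr5:120777725-120777734: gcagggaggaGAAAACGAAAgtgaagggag
Dhx58, site at chr11:100704266-100704275: ctctagaaatGAAACTGAAAcaaggggagg
Ifit3, site at chr19:34583373-34583382: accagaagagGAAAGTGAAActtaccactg
Ifit3, site at chr19:34583407-34583416: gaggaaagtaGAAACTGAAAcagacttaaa
The Oas1a run of 16 bases has the same letters as the middle Rtp4 run, which lay in a peak of both mice. The 150 bases before the start sites of Isg15, whose promoter was listed as open in mouse 1, and of Ifit3, whose promoter had no entry in any list, are given in the direction of transcription. Either gene has 1 annotated start site, and capitals mark the ISRE.
Isg15, chr4:156200819-156200968, minus strand: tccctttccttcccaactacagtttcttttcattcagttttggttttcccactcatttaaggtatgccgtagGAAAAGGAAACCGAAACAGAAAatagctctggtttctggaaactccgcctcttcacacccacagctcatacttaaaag
Ifit3, chr19:34583381-34583530, plus strand: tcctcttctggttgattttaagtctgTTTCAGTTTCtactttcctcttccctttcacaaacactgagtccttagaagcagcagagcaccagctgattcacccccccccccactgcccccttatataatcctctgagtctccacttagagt
In the Ifit3 stretch the motif reads on the opposite strand, so it appears as TTTC blocks, and the second site of Ifit3 lies at its outer edge and is not whole there.

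Most interferon-stimulated genes had an open promoter in thymus, with signals mostly below those of other open genes. Both mice had a promoter peak at 23 of 33 members (69.7%), against 56.6% of all protein-coding genes. In the single mice, 25 members had one in mouse 1 (all genes 56.9%) and 25 in mouse 2 (all genes 63.2%). The median promoter signal of the 23 open members was 3.26, with 2.56 in mouse 1 and 4.54 in mouse 2. For all protein-coding genes open in both mice it was 8.69, with 4.98 in mouse 1 and 12.2 in mouse 2. Of the 23 open members, 5 lay above that median of all open genes in the mean of the mice, namely Stat2, Irf9, Adar, Rsad2 and Trim25. Above the medians of the single mice there were 8 in mouse 1 and 4 in mouse 2.

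**Figure D1:**
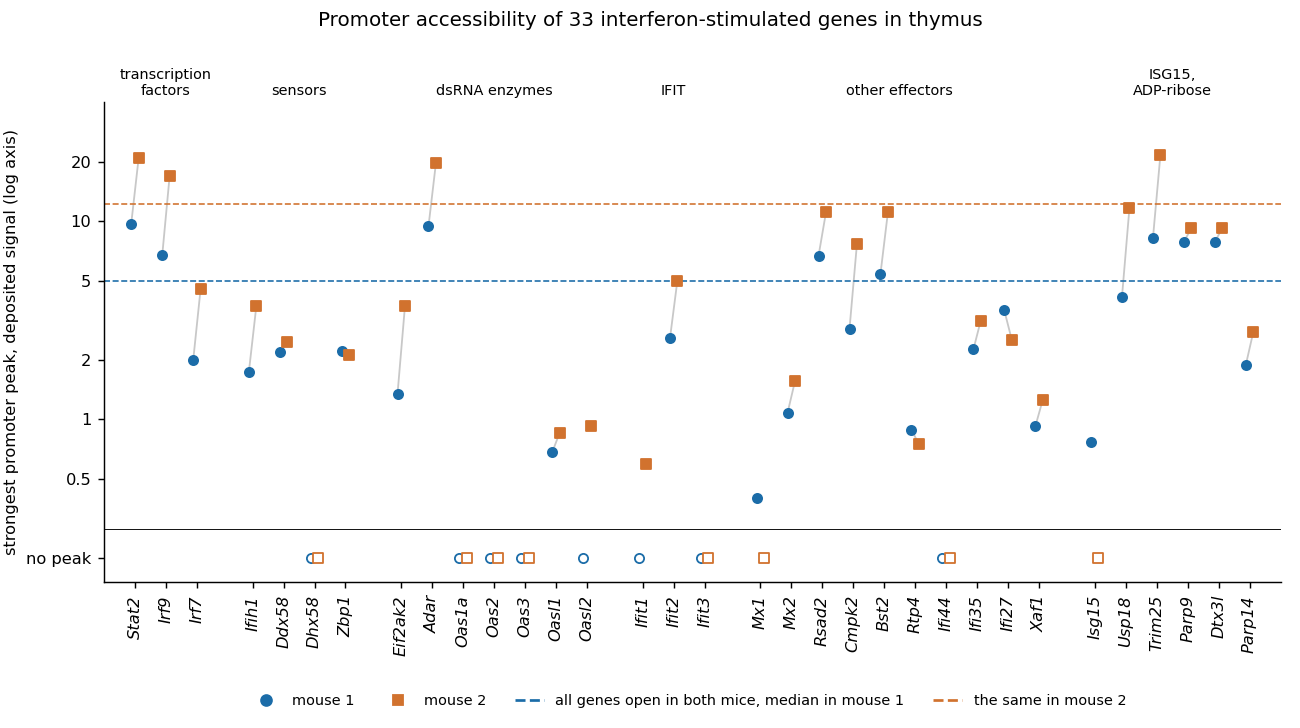
Deposited signal of the strongest promoter peak of each member (log axis) in mouse 1 (circles) and mouse 2 (squares), with members grouped by role and open symbols for no peak in the shorter list. Dashed lines are the medians over all protein-coding genes open in both mice, 4.98 in mouse 1 and 12.2 in mouse 2, and most members lie below the line of their mouse.

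The 3 transcription factors were all open in both mice and had a median signal of 11.8 in the mean of the mice, the highest of the role groups. In mouse 1 alone their median of 6.71 was below the 7.86 of the ISG15 and ADP-ribosylation group. That 7.86 is a single peak shared by Parp9 and Dtx3l and entered for each gene, so the order in mouse 1 rests on the repeated entry. Stat2, whose product gives ISGF3 its activating domain, had signals of 9.73 in mouse 1 and 20.9 in mouse 2, higher than 74.5% of open genes in the mean of both. Irf9, the subunit of ISGF3 that recognises the ISRE, had 6.71 in mouse 1 and 16.9 in mouse 2. Irf7, the factor that amplifies interferon production, had 1.98 and 4.54. Its mean of 3.26 ± 1.81 (SD, n = 2) was the median of the open members. None of the 3 had an ISRE in the 300 promoter bases of its principal start site, but all had matches farther out. Stat2 had one at position -291, in a cut-rate run of both mice and in no peak. Irf9 had one 292 bp before another of its start sites, in no peak or run. Irf7 had one 372 bp downstream of its principal start site and 56 bp before another. This Irf7 match lay inside a peak of signal 1.03 in mouse 1 and 1.38 in mouse 2. Stat2 stood apart in base composition as well: its CpG observed-over-expected ratio of 0.92 was the highest among the members.

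Of the 4 nucleic acid sensors, 3 were open in both mice, and all 4 carried an ISRE. Ifih1 encodes MDA5, a sensor of long double-stranded RNA, and had signals of 1.74 in mouse 1 and 3.72 in mouse 2. Ddx58 encodes RIG-I, which detects RNA with a 5′ triphosphate, and had 2.18 and 2.44. Zbp1, a sensor of Z-form nucleic acid that can start necroptosis, had 2.20 and 2.11. Its 2 ISRE runs, 36 and 84 bp before the start site, lay inside the peak chr2:173218841-173219080, which has the same boundaries in both mice. A footprint touched both runs in either mouse. Dhx58, which encodes LGP2, a regulator of the other RNA sensors, had no promoter peak in the shorter list. Its longer list held promoter peaks in mouse 2 (strongest signal 1.39), and none in mouse 1.

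The enzymes that act on double-stranded RNA split into open and closed genes. Adar, which encodes the RNA editing enzyme ADAR1, had 9.40 in mouse 1 and 19.6 in mouse 2, a mean below those of Stat2 and Trim25 alone among the members. Eif2ak2 encodes the kinase PKR, which halts translation, and had 1.34 and 3.71. Oasl1 had 0.683 and 0.856, and the related Oasl2 had no peak in mouse 1 and one of 0.922 in mouse 2, 707 bp from its nearest start site. Both genes encode OAS-like proteins. Oas1a, Oas2 and Oas3 encode oligoadenylate synthetases that activate RNase L, and none of the 3 had a promoter peak of the shorter list in either mouse. Oas3 had promoter peaks in the longer list, with signals of 0.472 in mouse 1 and 0.499 in mouse 2, and a footprint over its ISRE in mouse 1. Oas1a and Oas2 had no peak of either list, no cut-rate run and no footprint within 1 kb of a start site in either mouse. For Oas1a, 18.2% of the 32-base words of the promoter sequence occur elsewhere in the genome. For Oas2 the share was 0%, and for Parp14, which was open in both mice, it was 17.8%. The part of such copies in the missing entries was not tested.

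The IFIT genes showed 3 different states. They encode proteins that bind foreign or incompletely capped RNA, and lie near one another on chromosome 19. Ifit2 was open in both mice, with 2.56 in mouse 1 and 5.01 in mouse 2. Ifit1 had no peak of the shorter list in mouse 1 and one of 0.594 in mouse 2. In the longer list it was present in both, with 0.491 and 0.594. A start site of the related gene Ifit1bl2 lies 128 bp away on the opposite strand, so the peak cannot be given to Ifit1 alone. Ifit3 had no peak of either list, no run and no footprint at its promoter, but 61.7% of its 32-base words occur elsewhere in the genome, the highest share among the members. Here too the part of the copies was not tested. A peak in an exon of Ifit3, 4.8 kb past its start site at chr19:34588341-34588541, had a signal of 0.670 in mouse 1 and 0.705 in mouse 2.

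Among the other effectors, 8 of 10 were open in both mice. Rsad2 encodes viperin, which makes a chain-ending nucleotide, and had 6.70 in mouse 1 and 11.1 in mouse 2. Bst2 encodes tetherin, which holds budding virions at the cell surface, and had 5.43 and 11.1. Cmpk2, a mitochondrial nucleotide kinase gene that lies head to head with Rsad2, had 2.87 and 7.69. These were the 3 most open genes of the group. Ifi27, an interferon-induced gene of mitochondria and the nuclear envelope, had 3.54 in mouse 1 and 2.52 in mouse 2. Ifi35 had 2.25 and 3.15. Xaf1, whose product antagonises the apoptosis inhibitor XIAP, had 0.919 and 1.25. Rtp4, a receptor transporter gene, had 0.887 and 0.746. Ordered by mean, Rsad2 was followed by Bst2, Cmpk2, Ifi27, Ifi35, Mx2, Xaf1 and Rtp4. Neighbours in this order overlapped in the range of the mice, except Ifi35 with Mx2 and Xaf1 with Rtp4.

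Mx1 and Mx2, the latter typed as a polymorphic pseudogene, belong to a family of dynamin-like GTPases that block virus replication. Both had weak promoter peaks. Mx2 had 1.08 in mouse 1 and 1.56 in mouse 2. Mx1 had a peak of 0.402 in mouse 1 and none of the shorter list in mouse 2, where the longer list gave 0.433. In either promoter sequence 6.69% of the 32-base words occur elsewhere. Ifi44 had no peak of the shorter list. Its longer list held a peak of 0.176 in mouse 2, and 23.8% of its 32-base words have copies.

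The genes of protein conjugation were open, with the modifier itself the weakest. Isg15, the ubiquitin-like protein that is attached to many targets, had 0.766 in mouse 1 and no peak of the shorter list in mouse 2. In the longer list it had 0.766 and 0.695, so the mice differed less in height than in the list that held the peak. Usp18, the protease that removes ISG15 and also damps the interferon receptor, had 4.15 and 11.6. Trim25, a ubiquitin ligase that acts on RIG-I, had 8.21 and 21.5, and its mean of 14.9 ± 9.43 (SD, n = 2) was second only to that of Stat2. Parp9 and Dtx3l encode the partners of an ADP-ribosylating ubiquitin ligase complex. Their nearest start sites lie 90 bp apart on opposite strands, and the strongest peak of both was the same one, chr16:35939741-35940020 in mouse 1, with 7.86 in mouse 1 and 9.22 in mouse 2. These are therefore not separate values. Parp14, a mono-ADP-ribosyltransferase gene on the same chromosome, had 1.88 and 2.75.

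Where a promoter missed the shorter list in one mouse or in both, the more permissive data often held it. In the longer list 28 of 33 members had a promoter peak in both mice, against 60.9% of all protein-coding genes. The 5 genes added were Oas3, Oasl2, Ifit1, Mx1 and Isg15. A cut-rate run, a stretch with a deposited FDR under 0.05, was present in both mice at 28 members (all genes 61.9%). A footprint, a short stretch protected from cutting inside an accessible region, was present in both at 27 members (all genes 59.3%). Oas1a, Oas2 and Ifit3 were the 3 members with no entry at the promoter in any of these lists in either mouse.

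Most of the strongest promoter peaks sat on a start site, and they were placed alike in both mice. In all 23 open members the strongest peaks of the mice overlapped each other. In 19 of 23 the peak was at most 100 bp from a start site of the gene in both mice, and in 18 it covered one. The exceptions to the 100 bp limit were Ddx58, 420 bp from the nearest start site, Cmpk2, at position -489 from it in mouse 1 and -529 in mouse 2, and the shared peak of Parp9 and Dtx3l. These counts were not made for other open genes, so the placement is not read as particular to the members.

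**Figure D2:**
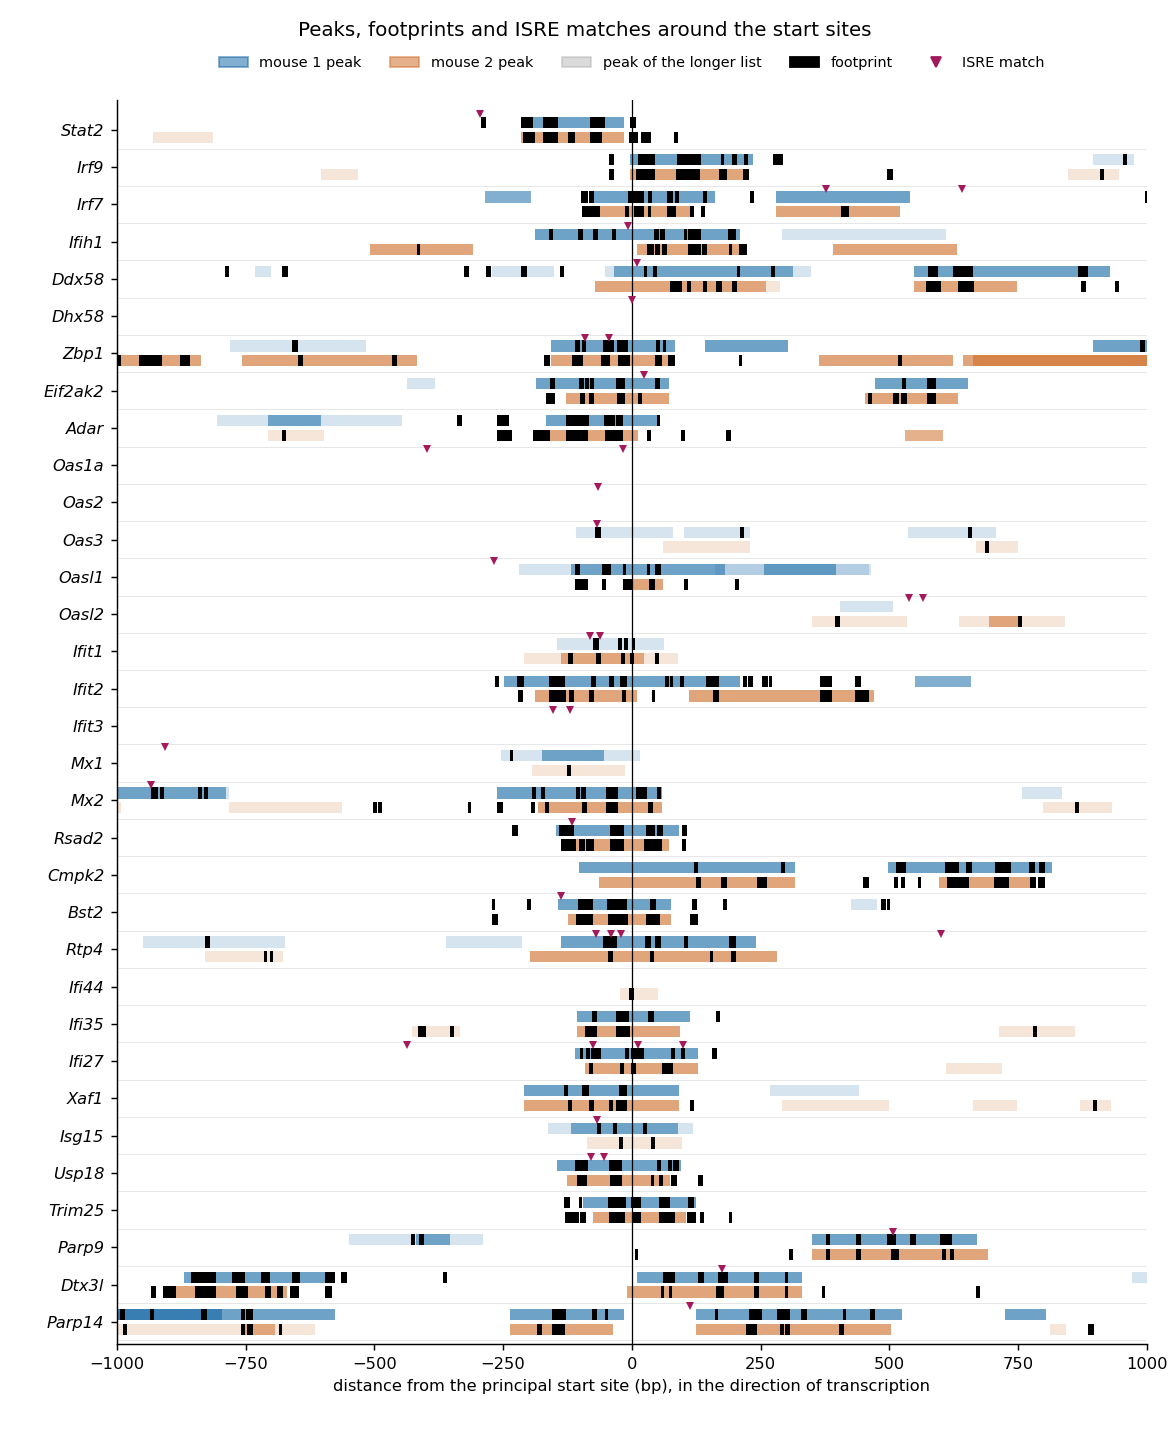
Peaks of the shorter list (dark bars), peaks of the longer list (pale bars), footprints (black) and ISRE matches (triangles) within 1000 bp of the principal start site, upper bar of each gene for mouse 1 and lower bar for mouse 2. Dhx58, Oas1a, Oas2 and Ifit3 carry ISRE matches in rows with no peak, and at Zbp1, Rtp4, Rsad2 and Ifi27 matches lie inside peaks of both mice.

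The ISRE sites were also set against the peaks one by one. Within 1 kb of any start site there were 49 ISRE sites, at 26 members, overlapping matches being joined. Of these, 34 lay within 150 bp of a start site, at 22 members. Of the 34, 18 were inside a peak of mouse 1 and 17 inside a peak of mouse 2, 15 of them in both. Of the other 15 sites, farther from a start, 1 was inside a peak of mouse 1 and 0 of mouse 2. The same count per site was not made for other genes. Of the protein-coding genes outside the members with an ISRE in the promoter sequence, 46.4% were open in both mice. The share of sites in peaks is therefore not read as particular to the members. The members with an ISRE inside a promoter peak in both mice were Ddx58, Dtx3l, Eif2ak2, Ifi27, Irf7, Parp9, Rsad2, Rtp4, Usp18 and Zbp1. Dtx3l and Parp9 share 1 site.

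Some of these sites were also marked by footprints, which a bound protein can leave. Of the 34 sites near a start, 11 touched a footprint in mouse 1 and 9 in mouse 2, 8 of them in both. The genes with such a site in both mice were Dtx3l, Ifi27, Ifit1, Parp9, Rsad2, Rtp4 and Zbp1. A touch needs only 1 base, and some overlaps were slight. The first and second Ifi27 sites each had 10 bases in a footprint of mouse 1, but 3 and 1 in mouse 2. The Zbp1 run farther from the start had 7 of 16 bases in mouse 1 and 4 in mouse 2. The Ifit1 site had 3 of 10 in mouse 1 and 8 in mouse 2. The Rsad2 site, 111 bp before the start, had 8 of its 10 bases in a footprint of mouse 1 and all 10 in one of mouse 2. The site shared by Parp9 and Dtx3l, in a second peak of 2.81 in mouse 1 and 4.75 in mouse 2, had 10 bases in a footprint of mouse 1 and 9 in mouse 2. At Usp18, whose 2 sites lay in a peak of 4.15 in mouse 1 and 11.6 in mouse 2, no footprint touched either site. Counted match by match within promoter peaks, 14 of 24 member matches touched a footprint in mouse 1 (58.3%) and 11 of 20 in mouse 2 (55%). Among other protein-coding genes the shares were 32.5% and 35%. The member matches come from 13 and 10 genes and overlap within a site, so they are fewer independent sites than matches.

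**Figure D3:**
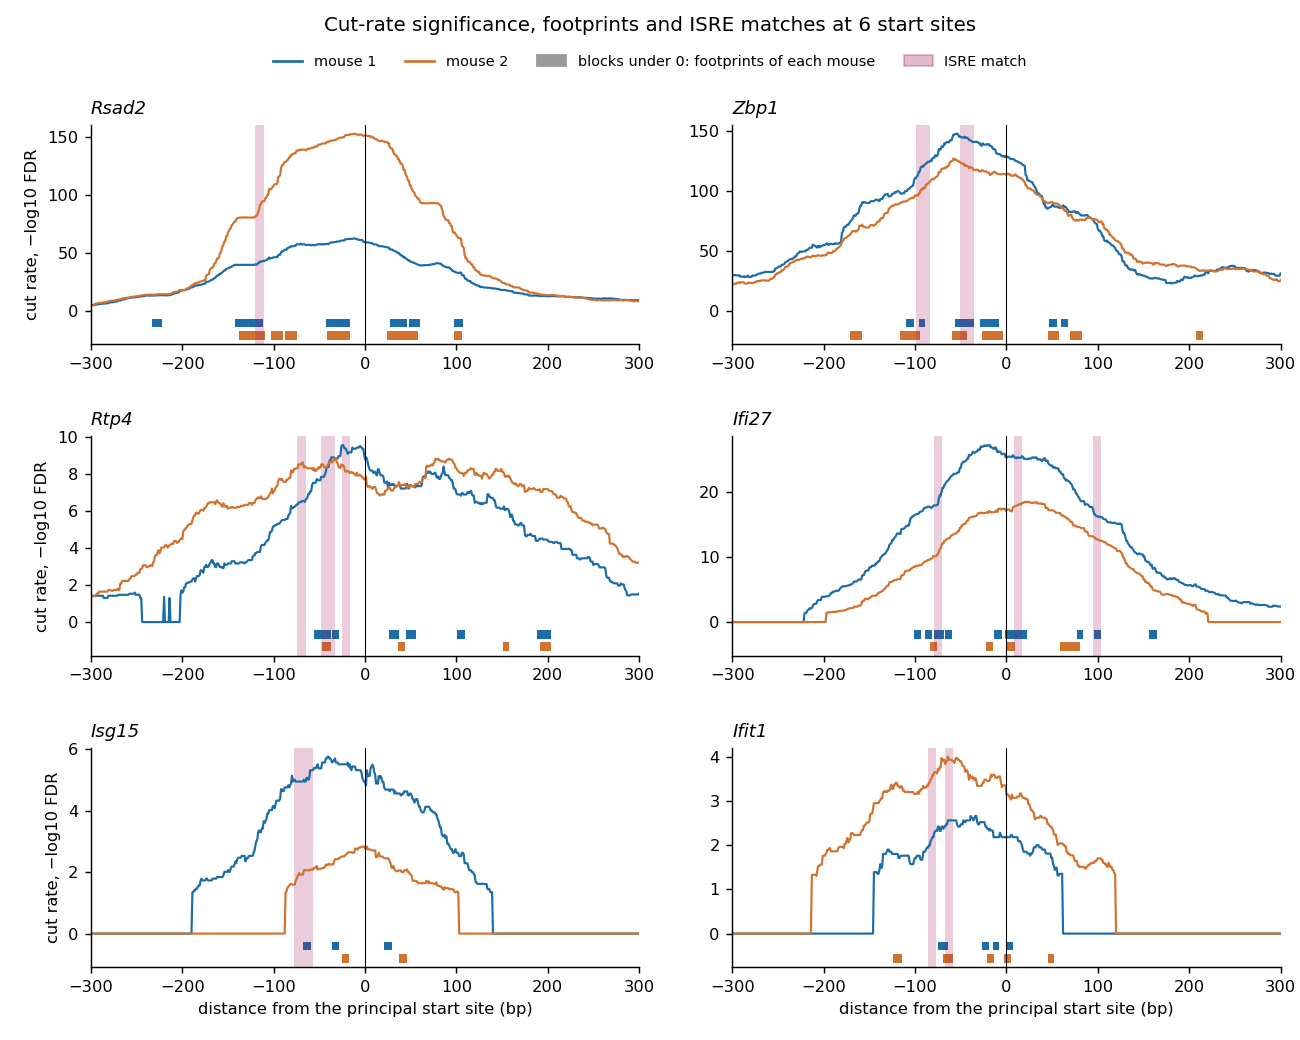
Significance of the local cut rate (−log10 of the deposited FDR, 0 where none is listed) within 300 bp of the principal start site at 6 members, with the footprints of each mouse as blocks under the curves and ISRE matches shaded. Each panel has its own vertical scale: the highest value is 152.9 at Rsad2 in mouse 2 and 147.9 at Zbp1 in mouse 1, and it is 5.8 at Isg15 in mouse 1 and 4.0 at Ifit1 in mouse 2.

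The significance of the local cut rate spanned a wide range over the same promoters. At Rsad2 the −log10 FDR reached 62.4 in mouse 1 and 152.9 in mouse 2, both 12 bp before the start site. At Zbp1 it reached 147.9 in mouse 1 and 127.1 in mouse 2, 54 and 58 bp before the start, between its ISRE runs. At Rtp4 the values were 9.5 and 8.8, and at Isg15 5.8 and 2.8. At Ifit1 they were 2.7 in mouse 1 and 4.0 in mouse 2. Zbp1 ranked higher by this measure than by peak height: its signal of 2.20 in mouse 1 was under that of Rsad2 (6.70), while its −log10 FDR was above that of Rsad2 in the same mouse.

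Other motifs were counted in the same 300 promoter bases, on both strands. GAS, the gamma-activated sequence (TTC, any 3 bases, GAA), was present in 6 of 33 members, against 7.94% of all protein-coding genes. The ETS-IRF composite (GGAA, any 2 bases, GAAA), which shares its second block with the ISRE definition, was present in 4 (all genes 2.74%). The ETS motif CCGGAA was found in 5 (all genes 18.3%), the GC box GGGCGG in 12 (all genes 45.8%), and CCAAT in 8 (all genes 38.4%). The TATA box TATAAA was found in 4 (all genes 12.6%), the RUNX motif TGTGGTT in 2 (all genes 4.9%), and the NF-kB consensus in 3 (all genes 5.07%). Apart from the ISRE, the largest differences in share were at the CCAAT box, 24.2% of members, and GAS, 18.2% of members. The ETS-IRF composite, more frequent in members (12.1%), and the GC box, less frequent in members (36.4%), followed. Within promoter peaks the members had 0.522 ISRE matches per peak in mouse 1 and 0.4 in mouse 2, against 0.0234 and 0.0166 at other protein-coding genes. For the GC box they had 0.457 and 0.5, against 1.06 and 1.13. These are counts of letters and not of bound sites.

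**Figure D4:**
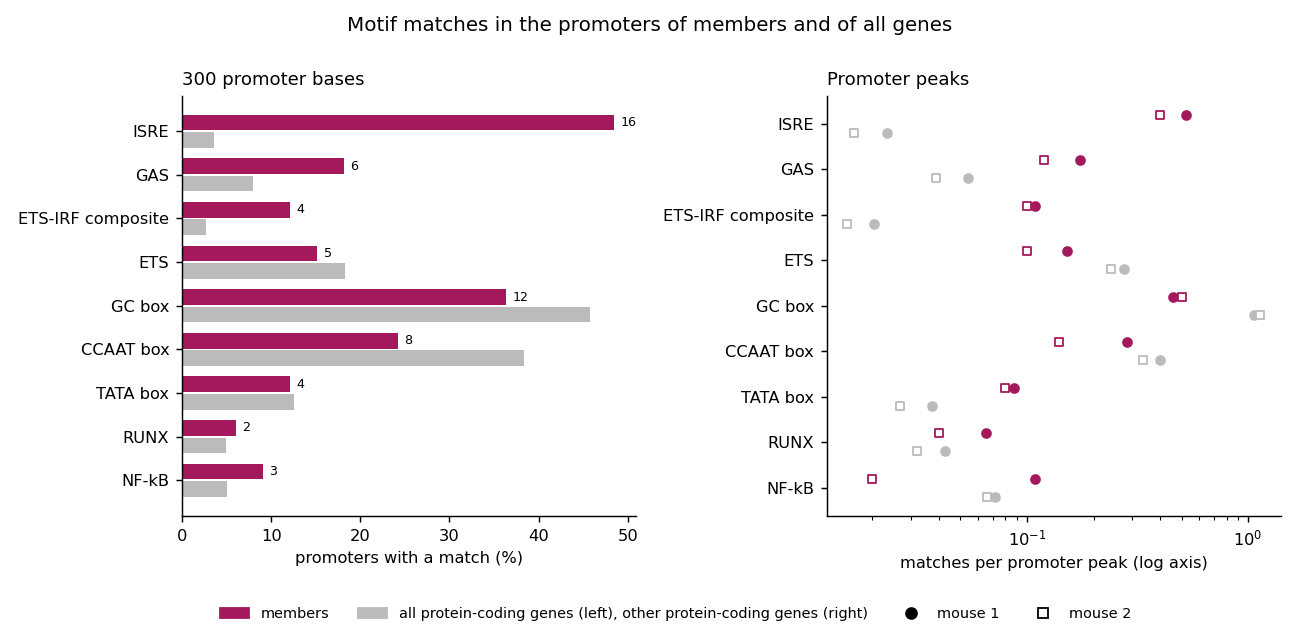
Left, share of promoters with each motif in the 300 bases around the principal start site, for the 33 members (with their number) and for all protein-coding genes. Right, matches per promoter peak (log axis) in mouse 1 (circles) and mouse 2 (squares), where ISRE stands farther to the right in members than in other genes, and the GC box farther to the left.

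The promoters of these genes were poor in CpG, and more of the CpG-poor ones were open than among genes at large. Their median CpG observed-over-expected ratio was 0.38, against 0.56 for all protein-coding genes. Of the 7 members with a ratio of at least 0.6, all 7 were open in both mice, against 86.3% of all genes in that range. Of the 26 members under 0.6, 16 were open (61.5%), against 29.9% of all genes in that range. The 6 members closed in both mice had a median of 0.14, as did Irf7 and Mx2, which were open. By ISRE, 9 of the 16 members that carry it were open in both mice, and 14 of the 17 that do not. Among the other protein-coding genes, 46.4% of those with an ISRE were open, against 56.9% of those without.

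**Figure D5:**
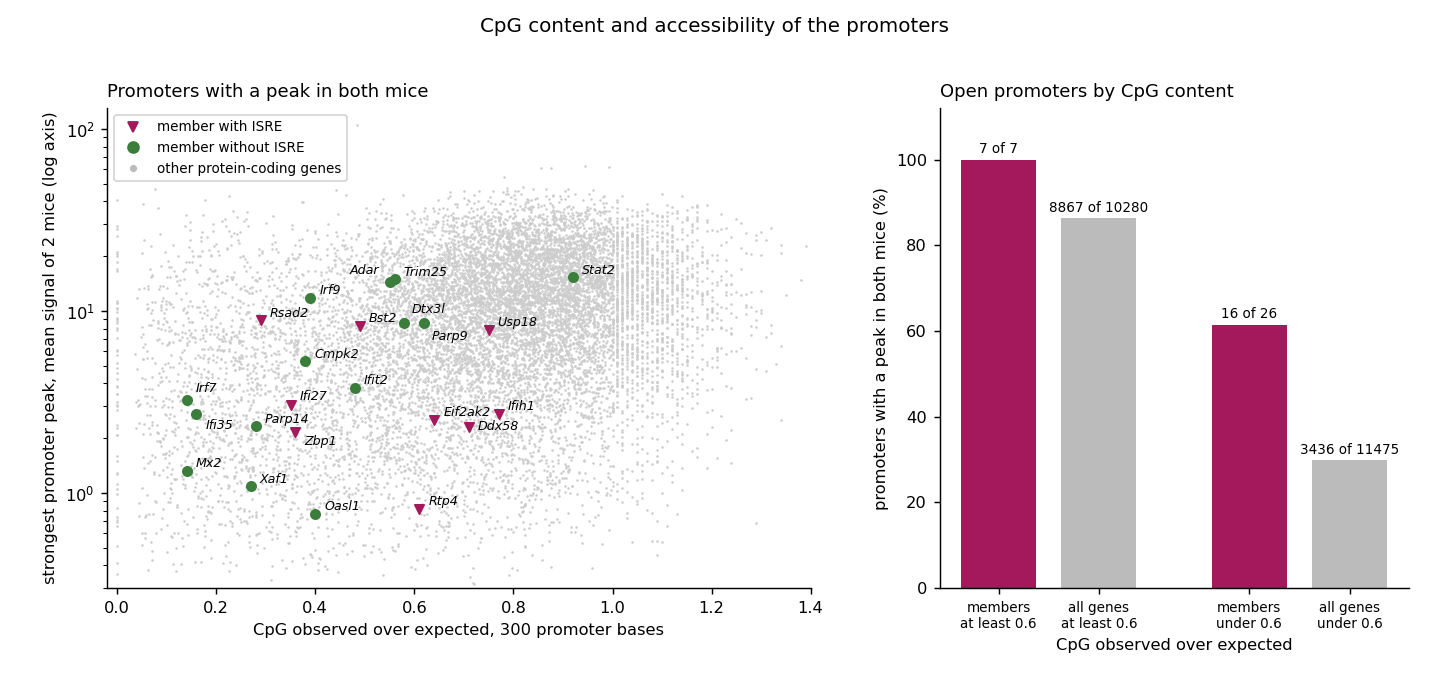
Left, mean promoter signal of both mice (log axis) against the CpG observed-over-expected ratio for promoters with a peak in both mice: members with an ISRE (triangles), members without (circles) and other protein-coding genes (grey). Right, share of promoters with a peak in both mice by CpG ratio, with counts: 7 of 7 members and 8867 of 10280 genes at a ratio of at least 0.6, and 16 of 26 members and 3436 of 11475 genes under it.

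The mice differed in signal at most promoters, by a smaller median ratio over these genes than over all. The signal was lower in mouse 1 at 20 of the 23 open members, and at 11939 of the 12303 protein-coding genes open in both mice. Among the members it was higher in mouse 1 at Zbp1, Rtp4 and Ifi27. The median log2 ratio of mouse 1 over mouse 2 was -0.73 over members and -1.27 over all open protein-coding genes. The ratio moved with GC content: with open genes split into 5 groups by the GC content of the strongest peak, it was -0.65 in the group of lowest GC and -1.66 in that of highest GC. Of the 23 members, 15 were in the group of lowest GC, with a median of -0.49, and none in that of highest GC. In the next group the 3 members had -1.06 and all genes -1.05, and in the middle group the 3 members had -1.39 and all genes -1.26. Each mouse is a single library, so no member was called different between them. The part of GC content in the difference was not tested.

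Around the genes, accessible sites were somewhat denser than at genes in general. Counted over the gene body and 10 kb on either side, the median was 0.653 peaks per 10 kb over members (0.673 in mouse 1, 0.71 in mouse 2), and 0.468 over all protein-coding genes. Among genes open in both mice the order differed between the mice. Members had 1.09 in mouse 1 against 0.756 for all such genes, and 0.756 in mouse 2 against 0.814. Zbp1 was highest in the mean of the mice, with 4 peaks in mouse 1 and 22 in mouse 2, or 4.02 ± 3.94 per 10 kb (SD, n = 2). This rank rests on mouse 2, since in mouse 1 Zbp1 had 1.24 per 10 kb, below 7 other members, with Isg15 highest at 2.8. Outside the promoter, the mouse 2 peaks of Zbp1 had signals between 0.0957 and 0.846. Isg15 followed with 6 peaks in each mouse, and Ifi35 with 7 in each. Most of those belonged to the promoters of neighbours, Agrn and AW011738 beside Isg15, and Rpl27, Rnd2 and Vat1 beside Ifi35. Oas1a and Ifi44 had no peak of the shorter list in their whole windows in either mouse. In the window of Rtp4, 114 kb long, mouse 1 had 1 peak and mouse 2 had 2.

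The windows of all members together held 101 distinct peaks in mouse 1 and 117 in mouse 2. Of these, 77.2% of the mouse 1 peaks and 66.7% of the mouse 2 peaks overlapped a peak of the other mouse. The same shares were not computed over all peaks, so they are not read as particular to these windows. At member promoters lay 46 and 50, and at promoters of other genes 18 in each mouse. The remaining 37 in mouse 1 and 49 in mouse 2 were distal, in exons, introns, other genes or between genes. Their median signal was 0.913 in mouse 1 and 0.977 in mouse 2, against 1.11 and 2.12 for the member promoter peaks.

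Several members had a site outside the promoter that was found in both mice and was stronger than the promoter in at least one. Oas3, with no promoter peak of the shorter list, had an intronic peak 1721 bp past its start site at chr5:120775601-120775940, with 4.74 in mouse 1 and 4.84 in mouse 2. Oasl1 had one between genes, at position -1060 from its start in mouse 1, chr5:114921861-114922180, with 3.75 in mouse 1 and 5.14 in mouse 2, above its promoter signals of 0.683 and 0.856. Ifit2 had one at position -2450 from its start, chr19:34548061-34548260, with 2.31 in mouse 1 and 6.38 in mouse 2, against promoter signals of 2.56 and 5.01. These sites carried no ISRE. A distal peak with an ISRE in both mice lay 20 kb past the start of Dtx3l, at chr16:35918767-35918943 in mouse 1, with 0.804 in mouse 1 and 0.851 in mouse 2. Usp18 had an ISRE at position -3955 from its start, inside a peak of 1.45 in mouse 1 and of 1.28 in the longer list of mouse 2.
Usp18, distal site at chr6:121241942-121241951: tctgagctggGAAAGTGAAActtaaggttg
Dtx3l, distal site at chr16:35918901-35918910: tggcagaacaGAAAGTGAAAgccacccaag
These are shown as distal matches near a member inside a shorter-list peak of one or both mice. Not shown is another at Usp18, 26804 bp past its start and inside a mouse 2 peak of 5.77. An intronic match of Ifit2 lay only in a longer-list peak, of 0.453 in mouse 1.

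Most of the footprints at these promoters overlapped one of the other mouse, at a share below that over all promoters in mouse 1 and near it in mouse 2. Summed over members, 240 footprints of mouse 1 and 242 of mouse 2 lay within 1 kb of a start site, and 57.1% and 53.7% of them overlapped a footprint of the other mouse. Over the promoters of all protein-coding genes the shares were 64.8% and 55.1%. The counting differs: footprints near both Parp9 and Dtx3l enter the member sums for each gene, while over all genes every footprint is counted once. Irf7 had 16 in mouse 1 and 13 in mouse 2, and Ifit2 had 16 and 9. Stat2, with the highest mean signal, had 8 and 9.

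The genes that make, receive and transmit the interferon signal stood in contrast to one another. None of the 8 interferon genes examined had a promoter peak in either mouse, among them Ifnb1, Ifng and Ifna4. Of the 6 receptor genes, 5 were open in both mice. Ifngr1, a chain of the interferon gamma receptor, had 17.6 in mouse 1 and 47.2 in mouse 2, and Ifnar1, a chain of the type I receptor, had 13.5 and 27.1. The lowest were Ifngr2 (2.12 and 3.76) and Ifnlr1, a chain of the type III receptor, with no peak in mouse 1 and 0.574 in mouse 2.

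Among the genes that pass the signal on, Stat3 had 10.8 in mouse 1 and 30.6 in mouse 2, and Socs1, a feedback inhibitor of the JAK kinases, had 10.4 and 30.4. Socs3, a related inhibitor, had 4.39 and 13.7. Irf1 (11.9 and 28.4) and Irf3 (9.65 and 21.5) had strong promoter peaks among the IRF genes, and Irf5 (0.504 and 1.49) had a weak one. Of 9 upstream receptors and adapters, 7 were open, with Myd88 (12.5 and 18.2) and Mavs (7.38 and 18.6) highest. Tlr9 had no promoter peak, and Tlr3 had one of 0.448 in mouse 2 alone. The name Mb21d1 matched no single protein-coding gene and is not used here.

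The tissue label was checked with marker genes. All 8 thymocyte markers had a promoter peak in both mice, with a median signal of 9.42, and 0 of 6 markers of liver, heart and brain had one. Of the macrophage markers 2 of 5 were open in both mice, Mertk and Cd68, at a median of 0.74, while Adgre1, C1qa and Csf1r had no promoter peak. Of 3 plasmacytoid dendritic cell markers 1 was open, Ccr9, which thymocytes also express, and Siglech and Cox6a2 had no promoter peak. B-cell markers were open at 1 of 4, thymic epithelial markers at 1 of 5, and fibroblast and endothelial markers at 3 of 5. The part of these cell types in the signal at the interferon-stimulated genes was not tested.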

How the data were processed

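Whole-thymus DNase-seq of 2 mice was used, 1 group with no test between conditions. The deposited signal of each peak comes from the authors' files, on mm10 coordinates. Its scale is unnamed, and it was treated as a depth-normalised height because its values are whole multiples of 1 step per library. The p-value column of the deposited cut-rate lists is an FDR, listed only below 0.05, and that of the deposited footprint lists is the constant 0.01, so footprint positions alone were used. Per the file headers, lists were made from each library's own alignments. The sources used here do not name the aligner, the callers or their settings.

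Genes and start sites came from GENCODE M21 and sequence from GRCm38.p6. No interval passed a chromosome end. Peaks, runs and footprints counted when they overlapped a window by at least 1 bp, and touching runs were merged. The principal start site was taken by APPRIS level, support level and length. CpG ratios and motifs used 300 bases. All 33 members are named. Other pathway genes are given by count, with the 2 highest and 2 lowest of each list, except for some that are not reported here. The members, lists and rules were chosen with earlier results of these data known. Alternatives were other windows, start sites, peak lists, motif definitions, and each mouse alone. Python 3.11.15, NumPy 2.4.6 and pandas 2.3.3 were used. Overlaps and motif search were tested on simulated data, with bedtools 2.31.1.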

Additional observations from a re-analysis of the deposited data

How the results depend on the processing

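The number of members open in both mice, the number with a footprint in both, the median promoter signal, the median log2 ratio between the mice and the median CpG ratio changed by less than 1.5 times or the spread between the mice under the alternatives run. The peak count ran between 19, with the stronger 50% of peaks (all genes 49.1%), and 28, with the longer list (all genes 60.9%). The footprint count ran between 22, with footprints overlapping by 50% of both (all genes 55.4%), and 30, with mouse 2 alone (all genes 67.2%). The median promoter signal ran between 2.56 in mouse 1 alone (all open genes 4.98) and 4.54 in mouse 2 alone (all open genes 12.2). The peak density of 0.653 per 10 kb became 0.826 over the gene body alone (all genes 0.415), 0.686 with 50 kb on either side (0.454), 1.28 with the longer list (0.713) and 0.378 with the stronger 50% of peaks (0.233). With either mouse alone it lay between 0.673 and 0.71. The 16 members with an ISRE became 27 with 1 mismatch allowed (all genes 33.9%), 10 when the motif had to be followed by CT (all genes 0.368%), and 25 within 1000 bases on either side of the start (all genes 22.8%). The source of these shifts was not tested. No paired analysis was possible because both libraries belong to 1 group. With 1 library per mouse and 2 mice, the spread between them limits every value, and absence from a list is absence at the threshold of that list.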
